A study of Mus musculus with 6 samples.

Results

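A network of 10 imprinted genes linked to growth and to the resting state of stem cells was followed in marrow progenitors of mice that lack BRM. The 10 genes, H19, Igf2, Igf2r, Grb10, Dlk1, Meg3, Ndn, Peg3, Plagl1 and Gnas, were taken by name from the 55487 genes listed in each library. The list was set with earlier results of these data known. The 6 libraries come from the marrow of 3 BrmKO and 3 WT mice. BrmKO mice carry the Brm-/- genotype and WT mice are wild type, both on a background that the labels write as C56Bl/6. The labels used here give neither the allele nor the age of the mice. Brm is the older name of Smarca2, which encodes a motor subunit of SWI/SNF complexes, machines that move nucleosomes with ATP. The cells were sorted as LSK cells, which lack lineage markers and carry c-KIT and SCA1, a fraction made of multipotent progenitors with a minority of blood stem cells.

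An imprinted gene is read mainly from the copy inherited from one parent, because DNA methylation laid down in the germ line marks its control region on a single parental copy, which can be the copy read or the silent copy. Many imprinted genes act on growth, and several act on the insulin-like growth factor (IGF) pathway, in which the ligands IGF1 and IGF2 signal through the receptor IGF1R. In blood stem cells of the adult mouse, imprinting at the H19 and Igf2 locus is known for holding down Igf2 and so for keeping the cells at rest. The libraries do not tell the parental copies apart, so each value below is the sum over both copies.

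In these cells the network divided into genes with a clear signal and genes with few reads. Grb10, Igf2r, Gnas and Ndn had at least 141 reads in every library, Dlk1 and Meg3 had at most 41, and Plagl1, Peg3, H19 and Igf2 had at most 14. Igf2r averaged 26.8 ± 3.66 reads per 1000000 in the library (CPM) in BrmKO and 12.8 ± 4.22 CPM in WT, and Ndn averaged 7.51 ± 1.18 CPM in BrmKO and 4.71 ± 0.47 CPM in WT (SD, n = 3 each). Those were the only members whose BrmKO and WT libraries did not overlap. Neither passed the test across all genes, edgeR's quasi-likelihood test with a Benjamini-Hochberg adjusted p under 0.05. Igf2r passed in DESeq2, with an adjusted p of 0.00238, and under none of the other alternatives tried, limma-voom among them.

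Library size lay between 28.01 and 36.46 M reads in genes, so that 3 reads, the floor used here for a count of 0, correspond to 0.0823 to 0.107 CPM. Intervals and floors given here cover counting error only, since the reads carry no molecular identifiers. Smarca2, the targeted gene, was read at 26.9, 26.5 and 27.9 CPM in BrmKO and at 173.5, 213.3 and 150.1 CPM in WT, a log2 fold change of -2.72 ± 0.13 (SE, adjusted p = 2.97e-05, edgeR). Of the genes of the gate, Kit stood at 976 ± 27.5 CPM in BrmKO and 941 ± 91.0 CPM in WT, and Ly6a, which encodes SCA1, at 30.5 ± 4.84 CPM in BrmKO and 24.7 ± 6.19 CPM in WT (SD, n = 3 each). Of 15691 genes tested, 22 passed (0.14%), 918 had an unadjusted p under 0.05 (5.85%) and 1735 had groups that did not overlap (11.1%). The libraries numbered 3 stood apart from the others, with 9.29% of reads outside genes in BrmKO and 8.41% in WT, against 5.79% to 6.61% in the other libraries. Results without each library are given where they differ. The labels do not say whether the mice were littermates or were sorted on the same day, so whether the libraries numbered 3 share a batch is not given.

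Of the 10 members, 6 passed the filter on low counts and were tested, and 0 of 6 passed the adjusted threshold in edgeR. limma-voom also called 0 of them, and DESeq2 called 1. An unadjusted p under 0.05 was found for 2 of the 6, Igf2r and Ndn, both higher in BrmKO, where 3.14% of all tested genes were as far out in that direction. The same 2 had groups that did not overlap, again higher in BrmKO, beside 5.69% of all tested genes. The log2 fold changes lay above 0 for 5 of the 6, with a median of 0.47, against a median of -0.01 over all genes tested.

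**Figure D1:**
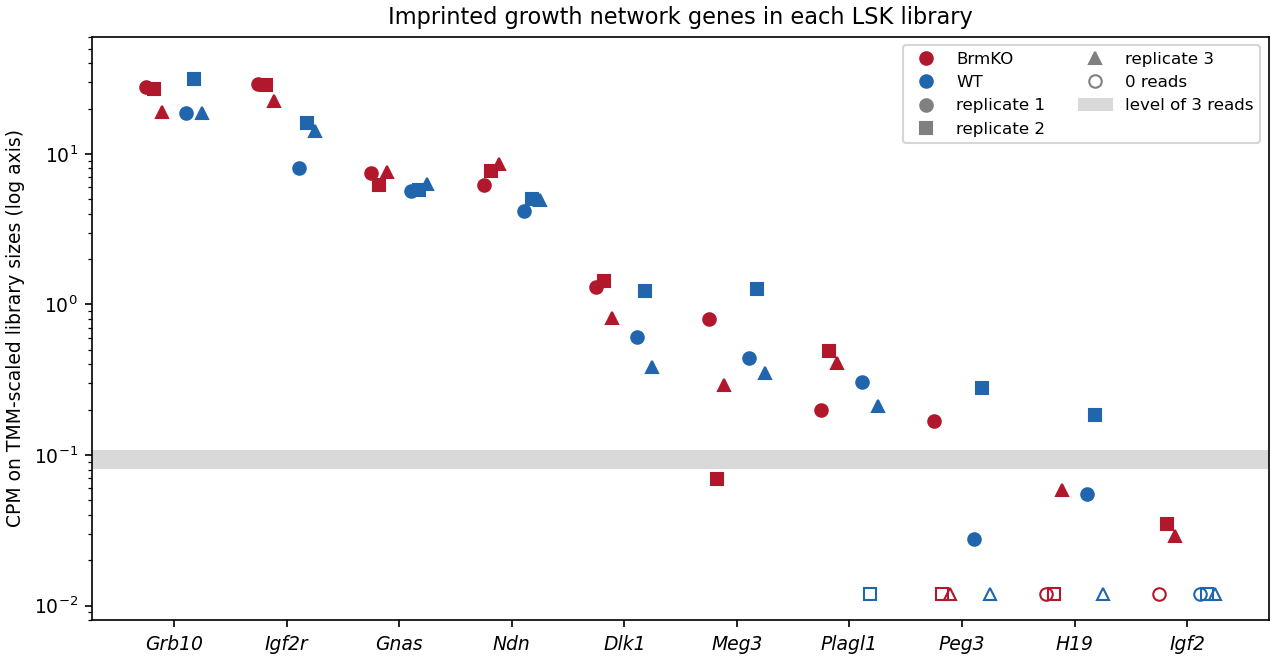
Level of the 10 imprinted genes in each library, in CPM on a log axis, with BrmKO in red to the left of WT in blue, and 1 marker shape per replicate. Open symbols on the lower edge have 0 reads, and the grey band is the level of 3 reads over the 6 libraries. For Igf2r and Ndn all 3 BrmKO libraries lie above all 3 WT libraries, while the groups overlap for the others.

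Levels of different genes can be set side by side only per length, here as CPM per kilobase of exon (RPKM). In BrmKO, Igf2r stood first at 2.88 ± 0.39 RPKM, followed by Grb10 at 2.71 ± 0.55, Ndn at 2.03 ± 0.32 and Gnas at 0.636 ± 0.068 RPKM (SD, n = 3). In WT, Grb10 stood first at 2.53 ± 0.81 RPKM, followed by Igf2r at 1.37 ± 0.45, Ndn at 1.28 ± 0.13 and Gnas at 0.529 ± 0.030 RPKM. The libraries of Igf2r and Grb10, and those of Grb10 and Ndn, overlapped in BrmKO, so their order there is within the spread. In WT, Grb10 lay above Igf2r in every library, and Igf2r and Ndn overlapped. Dlk1 followed at 0.209 ± 0.057 RPKM in BrmKO and 0.131 ± 0.077 RPKM in WT, and every other member averaged under 0.05 RPKM in both groups. From Dlk1 down, each member overlapped the next in the WT order. The Gnas and Igf2 levels come from parts of those genes only, as given with each.

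Promoter windows of Igf2r, its cluster neighbour Slc22a3 and Ndn are shown first. They were picked by their values, since their BrmKO and WT libraries did not overlap, though none of them passed the adjusted threshold in edgeR. Each is the 250 bases upstream of the transcript start in the RefSeq table for GRCm38.p6, written 5′ to 3′ on the gene's own strand, with every CpG, the dinucleotide that imprinting methylates, in capitals. The Igf2r window is chr17:12769707-12769956 (minus strand), the Slc22a3 window chr17:12507705-12507954 (minus strand) and the Ndn window chr7:62348027-62348276 (plus strand). The Ndn window precedes the RefSeq start and lies within the longer single exon that GENCODE M21 gives the gene.
Igf2r: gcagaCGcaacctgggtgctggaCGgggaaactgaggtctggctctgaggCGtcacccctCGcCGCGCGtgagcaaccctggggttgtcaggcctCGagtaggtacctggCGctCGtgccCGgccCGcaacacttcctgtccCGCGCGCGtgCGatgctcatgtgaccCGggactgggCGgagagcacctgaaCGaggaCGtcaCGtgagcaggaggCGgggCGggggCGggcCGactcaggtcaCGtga
Slc22a3: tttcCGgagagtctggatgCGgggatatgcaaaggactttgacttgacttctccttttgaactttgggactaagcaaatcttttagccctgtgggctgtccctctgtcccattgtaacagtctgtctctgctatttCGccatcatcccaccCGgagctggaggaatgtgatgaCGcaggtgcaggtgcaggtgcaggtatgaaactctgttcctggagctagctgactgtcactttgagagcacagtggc
Ndn: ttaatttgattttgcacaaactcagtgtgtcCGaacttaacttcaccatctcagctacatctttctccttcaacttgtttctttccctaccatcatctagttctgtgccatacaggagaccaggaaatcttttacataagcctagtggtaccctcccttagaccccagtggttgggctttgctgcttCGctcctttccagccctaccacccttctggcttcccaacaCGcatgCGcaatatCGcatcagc
The Igf2r window holds 27 CpG, as many as or more than 92.4% of the 32851 windows of that length in the table, whose median is 6. The Slc22a3 and Ndn windows hold 5 each, which 49.6% of windows do not exceed. The E-box letters CACGTG, a site known for basic helix-loop-helix factors such as MYC and TFEB, were looked for after this sequence was seen. They occur at 2 places in the Igf2r window, ending 42 bases and 1 base before the start, each within the longer palindrome TCACGTGA. CACGTG is found in 6.02% of all windows and at 2 or more places in 0.429%. TCACGTGA is found in 0.785% of all windows. The letters are a description of the sequence and show no binding.

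The table has 17 windows for 9 of the members, several having more than 1 start. On either strand, TGCCGC, the core letters bound by the imprint-keeping factor ZFP57 when methylated, occurs in 1 window of Meg3 and 1 of Plagl1, and in 8.68% of all windows. The letters GGGGCCCC occur in the Peg3 window and in 0.889% of all windows. The core motif of CTCF, the factor that reads the H19 and Igf2 control region, occurs in no member's window and in 0.0335% of all windows. The Plagl1 window also has CACGTG at 1 place. For H19 no window was used.

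The ligand Igf2, the growth factor of fetal tissues that is read from the paternal copy, had almost no counted read, in a count that leaves out most of its exon bases. Igf2 (chr7:142650766-142666816, GRCm38, minus strand) had 0, 1 and 1 reads in BrmKO replicates 1 to 3 and 0 reads in each WT library. Both groups lie under the floor of 3 reads, so no fold is given (exact permutation p = 0.40, two-sided, on CPM; 0.10 is the smallest p that 3 against 3 allow). Of the Igf2 exon bases, 62.8% are shared with the overlapping gene model Gm49394, and reads from shared bases are left out of both counts, so the Igf2 count covers only the rest. Its 7 coding transcripts share between 56.3% and 97.0% of their exon bases with other genes, 4 of them 93.0% or more. Gm49394 had 0 reads, and its count leaves out the same shared bases. These counts do not show whether Igf2 was expressed.

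H19, the non-coding RNA read from the maternal copy of the same domain, was near the floor of 3 reads. H19 (chr7:142575529-142578143, minus strand, a lincRNA) had 0, 0 and 2 reads in BrmKO and 2, 6 and 0 reads in WT. The groups overlap, and the ratio of summed reads, 2 in BrmKO to 8 in WT, has a 95% counting interval of 0.0272 to 1.32 (exact permutation p = 0.70, two-sided). A difference in H19 was not detectable at this depth. H19 is known as enriched in the most primitive stem cells, which are a minority of LSK cells, and in bulk RNA fewer cells of a type cannot be told apart from less RNA per cell.

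Igf2r encodes the cation-independent mannose 6-phosphate receptor, which carries lysosomal enzymes and takes IGF2 up for breakdown, and which mice read from the maternal copy in most tissues. Igf2r (chr17:12682406-12769664, minus strand) had 867, 829 and 777 reads in BrmKO and 291, 525 and 401 reads in WT. On scaled library sizes this was 29.0, 28.9 and 22.6 CPM in BrmKO and 8.04, 16.2 and 14.1 CPM in WT. The lowest BrmKO library lay above the highest WT library. The log2 fold change was 1.07 ± 0.24 (SE), a fold of 2.10, with an unadjusted p of 0.00141 that ranked 93 of 15691 genes, and an adjusted p of 0.238 by edgeR's quasi-likelihood test. It passed in DESeq2 (adjusted p = 0.00238), where 150 genes passed in all, and under none of the other 11 alternatives tried, whose adjusted p lay between 0.0948 and 0.643.

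Much of the spread in Igf2r lay in WT replicate 1, its lowest library. Without it the log2 fold change was 0.83 (adjusted p = 0.437, edgeR), and over the 6 fits that leave out 1 library it ran between 0.83 and 1.28. That library also had the highest summed level of 20 marrow stromal markers, at 506.8 CPM, against 249.6 to 357.2 CPM in BrmKO and 261.4 and 323.5 CPM in the other WT libraries. Of that sum, Pdgfrb made up 47.2% over all libraries. Whether the sum bears on Igf2r was not tested. For Igf2r, the BrmKO libraries remained above WT replicates 2 and 3 with no overlap.

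Grb10 encodes an adaptor that binds the insulin and IGF receptors and dampens their signal. Grb10 (chr11:11930508-12038683, minus strand) had 28.0, 27.0 and 18.96 CPM in BrmKO and 18.75, 31.5 and 18.74 CPM in WT. The groups overlapped across nearly their whole range. Its log2 fold change was 0.10 ± 0.23 (adjusted p = 0.999, edgeR) and was at -0.03 without WT replicate 1 and at -0.03 without WT replicate 3.

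**Figure D2:**
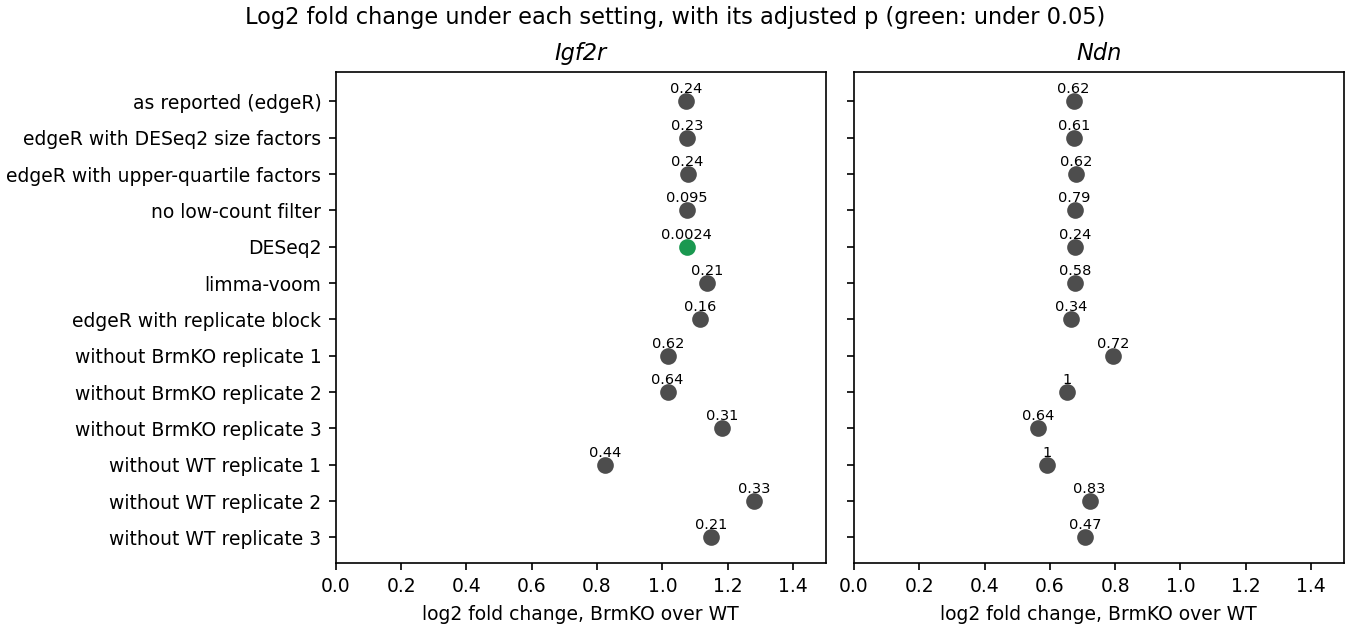
Log2 fold change of Igf2r and of Ndn, BrmKO over WT, on the horizontal axis under the fit as reported and 12 alternatives, with each adjusted p above its point and green for a value under 0.05. Igf2r passes in DESeq2 alone, at 0.00238, and both genes stay above 0 throughout.

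The Dlk1 and Meg3 domain on chromosome 12 carries the paternally read Dlk1, a membrane protein related to Notch ligands, and the maternally read non-coding RNA Meg3, whose domain is known for restraining mTOR activity in fetal liver blood stem cells. Dlk1 (chr12:109452823-109463336, plus strand) had 39, 41 and 28 reads in BrmKO and 22, 40 and 11 reads in WT, or 1.30, 1.43 and 0.814 CPM in BrmKO and 0.608, 1.23 and 0.387 CPM in WT. Meg3 (chr12:109541001-109571726, plus strand, a lincRNA) had 24, 2 and 10 reads in BrmKO and 16, 41 and 10 reads in WT, or 0.802, 0.0697 and 0.291 CPM in BrmKO and 0.442, 1.26 and 0.352 CPM in WT. Meg3 varied more than Dlk1 within each group, and for both the groups overlapped.

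The log2 fold change of Dlk1 was 0.66 ± 0.53 and that of Meg3 was -0.82 ± 0.82 (adjusted p = 0.999 for each, edgeR). Each depended on single libraries. Dlk1 was at 0.36 without WT replicate 3 and at 1.24 without WT replicate 2. Meg3 was at -0.04 without WT replicate 2, which held 41 of its reads, and at -1.88 without BrmKO replicate 1. Rian, the non-coding RNA that follows Meg3, had 1 read over the BrmKO libraries and 4 over the WT libraries. Mirg and Dio3 had 0 reads in BrmKO and 2 in WT, and Rtl1 had 0 reads in all.

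Ndn encodes necdin, a MAGE family protein that binds p53 and E2F factors and is known for holding blood stem cells at rest. Ndn (chr7:62346569-62350262, plus strand) had 187, 221 and 295 reads in BrmKO and 151, 163 and 141 reads in WT. On scaled library sizes this was 6.25, 7.70 and 8.58 CPM in BrmKO and 4.17, 5.02 and 4.96 CPM in WT. Every BrmKO library lay above every WT library. The log2 fold change was 0.67 ± 0.22, a fold of 1.59, with an unadjusted p of 0.0118 and an adjusted p of 0.617 (edgeR). It did not pass under any of the 12 alternatives, with an adjusted p of 0.240 in DESeq2 as the lowest, and lay between 0.56 and 0.79 when single libraries were left out.

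The other genes of the Ndn domain, the region of the Prader-Willi and Angelman syndromes, gave no such separation. Mkrn3, a ring-finger gene beside Ndn that is also read from the paternal copy, had 2.91, 2.37 and 4.19 CPM in BrmKO and 1.602, 3.08 and 3.90 CPM in WT, a log2 fold change of 0.15 ± 0.38. Peg12 had 1.83 ± 0.40 CPM in BrmKO and 1.91 ± 0.23 CPM in WT (SD, n = 3 each). Ube3a, a ubiquitin ligase whose paternal copy is silenced mainly in neurons, had 71.4 ± 4.37 CPM in BrmKO and 74.5 ± 3.999 CPM in WT, a log2 fold change of -0.06 ± 0.09. The adjusted p of Mkrn3, Peg12 and Ube3a was 0.999 each (edgeR), and the sign of Mkrn3 and of Peg12 turned when single libraries were left out. Snrpn had 10 reads over the BrmKO libraries and 19 over the WT libraries, and shares exons with Snurf and Gm38393, so its count is a part only. Magel2 and Snurf had 0 reads in every library.

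Peg3 and Plagl1 encode zinc-finger proteins that are read from the paternal copy and act on growth and cell division. Peg3 (chr7:6703892-6730431, minus strand) had 5, 0 and 0 reads in BrmKO and 1, 9 and 0 reads in WT. Its neighbours Usp29 and Zim1 had 0 reads in every library. The ratio of its summed reads, 5 in BrmKO to 10 in WT, has a 95% counting interval of 0.141 to 1.69 (exact permutation p = 0.70, two-sided), so that no difference was detectable. Plagl1 (chr10:13060504-13131694, plus strand) had 6, 14 and 14 reads in BrmKO and 11, 0 and 6 reads in WT. The ratio of 34 reads in BrmKO to 17 in WT has a counting interval of 1.14 to 4.01, which leaves out the spread between mice. Over the libraries the groups overlapped (exact permutation p = 0.30, two-sided).

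Gnas encodes the stimulatory G protein alpha subunit, which turns on adenylyl cyclase, and from other starts further imprinted products. Gnas (chr2:174284320-174346744, plus strand) had 7.49, 6.24 and 7.62 CPM in BrmKO and 5.69, 5.75 and 6.29 CPM in WT. The lowest BrmKO library lay just under the highest WT library. The log2 fold change was 0.27 ± 0.20 (adjusted p = 0.999, edgeR), between 0.21 and 0.35 when single libraries were left out. The count covers a part of the gene only. In the GENCODE M21 annotation, the opposite-strand model Gm20721, with 4 reads in all, shares 84.7%, 80.4% and 85.4% of the exon bases of the short Gnas transcripts Gnas-206, Gnas-207 and Gnas-208. Where strand is not used in counting, reads from those bases fall to no gene. The sources used here do not give the strand setting. The library kit does not mark strand. In such a library, counting by strand would put reads of the opposite strand outside genes, where only 5.79% to 9.29% of reads lay. Nespas, the antisense RNA of the locus, had 0.482 ± 0.278 CPM in BrmKO and 0.522 ± 0.365 CPM in WT, and 31.4% of its exon bases are shared with Gnas.

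Igf2r lies in a cluster with Airn, a non-coding RNA that starts within Igf2r on the opposite strand, is read from the paternal copy and silences Igf2r there, and with the organic cation transporters Slc22a2 and Slc22a3, which Airn silences in placenta. Airn had 14, 6 and 31 reads in BrmKO and 21, 6 and 7 reads in WT, or 0.468, 0.209 and 0.902 CPM in BrmKO and 0.580, 0.185 and 0.246 CPM in WT. Its groups overlapped, and its log2 fold change of 0.63 ± 0.70 (adjusted p = 0.999, edgeR) was at -0.0026 without BrmKO replicate 3. Airn and Igf2r share no exon bases in the annotation, but the Airn count covers only its 3597 annotated exon bases. The library kit does not mark strand. Where strand is not used in counting, Airn reads that fall on an Igf2r exon would be counted as Igf2r. Their number was not tested. Slc22a2 had 4, 0 and 1 reads in BrmKO and 0 reads in each WT library.

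Slc22a3, well read in these cells, had 127.3, 136.9 and 129.4 CPM in BrmKO and 176.3, 172.2 and 141.9 CPM in WT. All 3 BrmKO libraries lay below all 3 WT libraries, in the opposite direction to Igf2r in the same cluster. The log2 fold change was -0.32 ± 0.10, with an unadjusted p of 0.0112 and an adjusted p of 0.605 (edgeR), and it passed under none of the 12 alternatives. Lower values without overlap were found for 5.37% of all tested genes. Ddc, the neighbour of Grb10, had 0.482 ± 0.210 CPM in BrmKO and 0.269 ± 0.127 CPM in WT (SD, n = 3 each), a log2 fold change of 0.84 ± 0.64 (adjusted p = 0.999, edgeR). Ins2, beside Igf2, had 0 reads in every library.

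**Figure D3:**
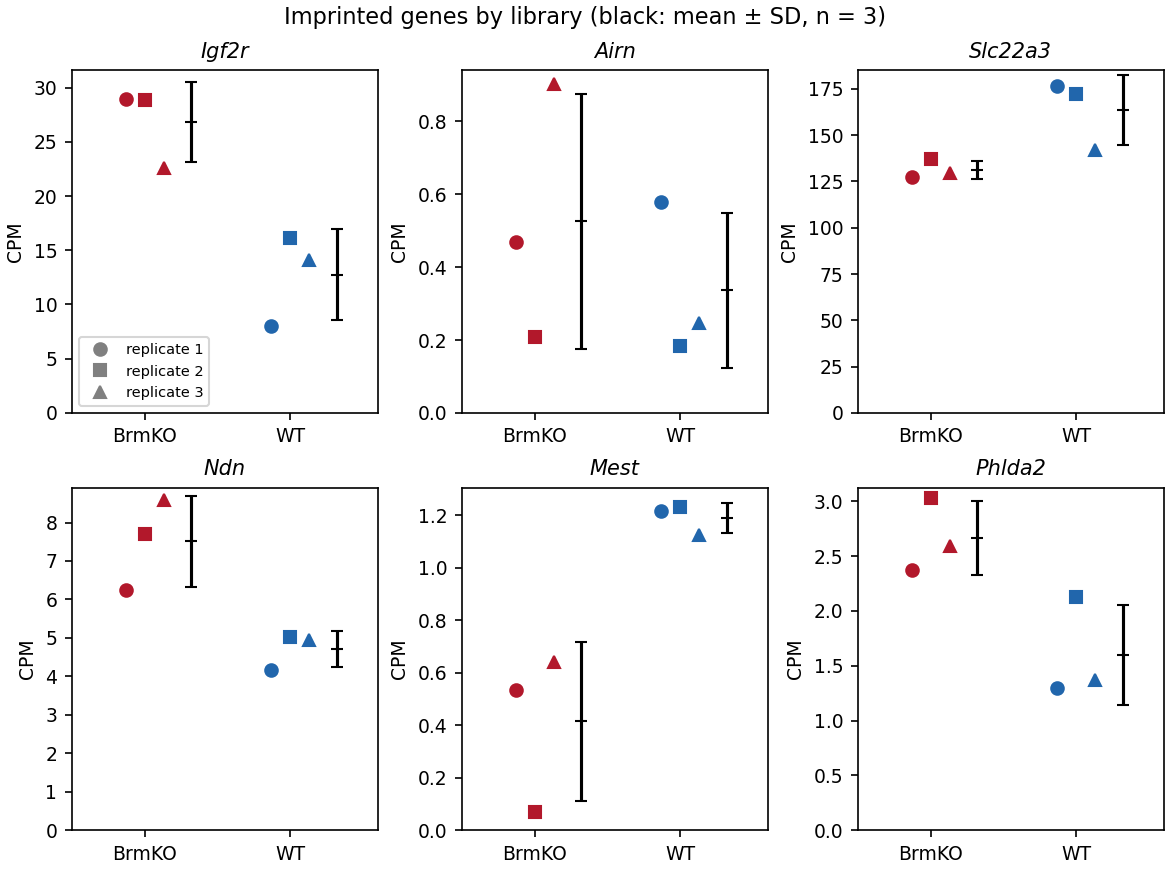
CPM by library of Igf2r, its cluster neighbours Airn and Slc22a3, and Ndn, Mest and Phlda2, with BrmKO in red to the left of WT in blue and the mean ± SD (n = 3) in black. Each axis starts at 0. Igf2r, Ndn and Phlda2 are higher in every BrmKO library than in any WT library, Slc22a3 and Mest are lower, and Airn overlaps.

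Beyond the network, 46 other genes known as imprinted in some mouse tissue were listed, of which 35 had at least 3 reads and 26 were tested. None of the 26 passed in edgeR, DESeq2 or limma-voom. An unadjusted p under 0.05 was found for 2, Slc22a3 and Mest, both lower in BrmKO, beside 2.71% of all tested genes in that direction. The groups did not overlap for 4, Phlda2 and Cdkn1c being higher and Slc22a3 and Mest lower, beside 11.1% of all tested genes in either direction. The log2 fold changes lay above 0 for 17 and below 0 for 9, with a median of 0.05, which was at -0.07 without WT replicate 1. The network's median of 0.47 over 6 genes ran between 0.34 and 0.56 when single libraries were left out.

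Mest, a paternally read gene of the hydrolase fold family, had 16, 2 and 22 reads in BrmKO and 44, 40 and 32 reads in WT, or 0.535, 0.0697 and 0.640 CPM in BrmKO and 1.22, 1.23 and 1.13 CPM in WT. Its log2 fold change was -1.50 ± 0.66 (unadjusted p = 0.0470, adjusted p = 0.837, edgeR). It shares 23.1% of its exon bases with the opposite-strand gene Copg2, which had 21762 reads over the 6 libraries. Where strand is not used in counting, reads from those bases are left out of both counts. Phlda2, a maternally read gene that limits placental growth, had 2.37, 3.03 and 2.59 CPM in BrmKO and 1.30, 2.12 and 1.37 CPM in WT, a log2 fold change of 0.74 ± 0.33. Cdkn1c, the maternally read inhibitor of cyclin-dependent kinases known for keeping blood stem cells at rest, had 2.04, 1.78 and 2.07 CPM in BrmKO and 1.08, 1.08 and 1.69 CPM in WT, a log2 fold change of 0.62 ± 0.35. Their adjusted p-values were 0.841 and 0.944 (edgeR). Of the Cdkn1c exon bases, 30.7% are shared with the opposite-strand model Gm44732, which had 0 reads, so the limit given for Mest holds here too. Impact, a regulator of translation, and Mcts2, a retrocopy inside H13, had log2 fold changes of -0.26 ± 0.13 and -0.55 ± 0.29 with overlapping groups.

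**Figure D4:**
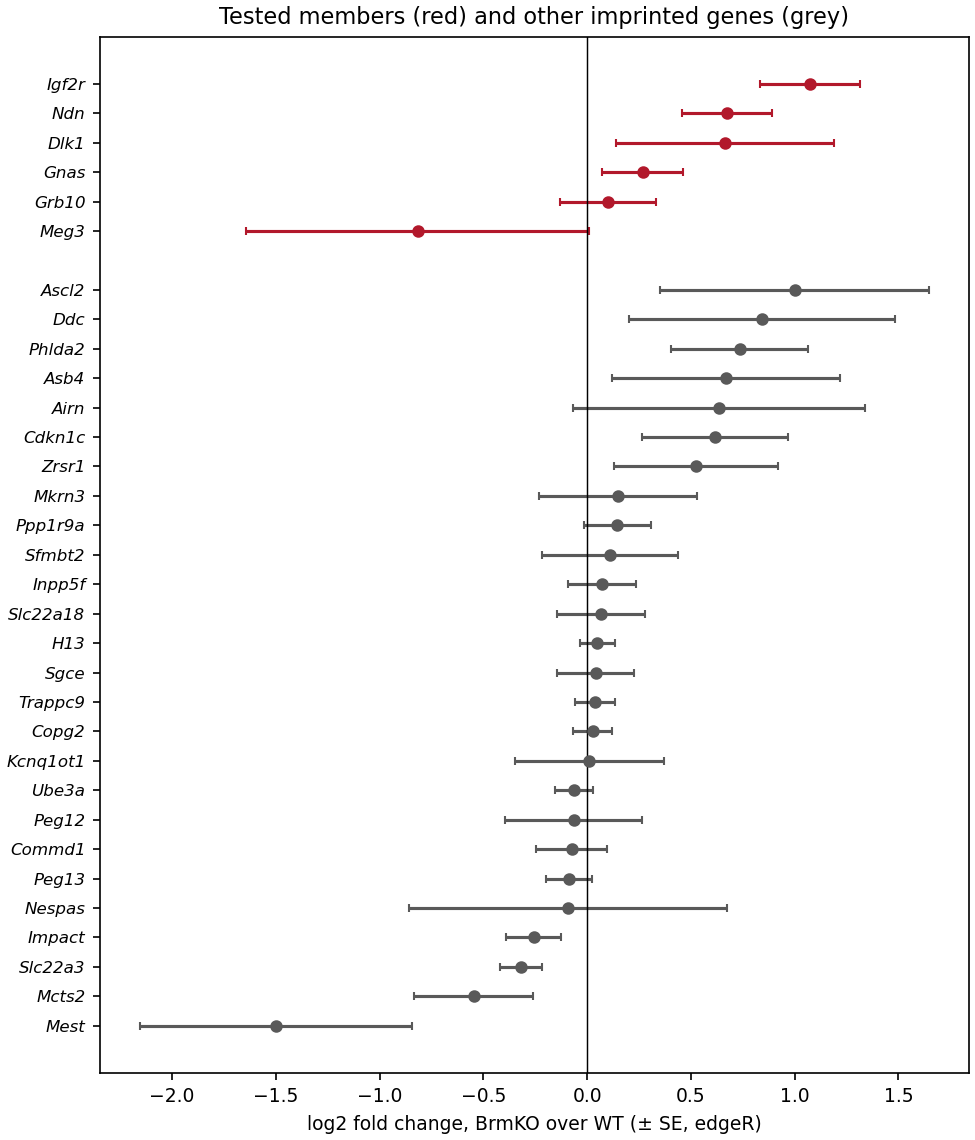
Log2 fold change, BrmKO over WT, with its SE for the 6 tested members in red and the 26 other tested imprinted genes in grey, each sorted by value. Of the members, Igf2r, at 1.07, lies farthest above 0 and Meg3, at -0.82, is below it. The others spread on both sides of 0 around a median of 0.05.

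The genes around IGF signalling were followed as a list of 31, of which 27 were tested. None passed in edgeR, DESeq2 or limma-voom, and 4 had an unadjusted p under 0.05 in edgeR, all lower in BrmKO, where 2.71% of all tested genes were. These 4 were the ligand Igf1 and the binding proteins Igfbp7, Igfbp2 and Igfbp3. Igf1 had 0.568, 0.627 and 0.669 CPM in BrmKO and 1.19, 1.88 and 1.86 CPM in WT, with no overlap and a log2 fold change of -1.39 ± 0.40 (unadjusted p = 0.00678, adjusted p = 0.516, edgeR). Igfbp2 had 0.167, 0.0348 and 0.116 CPM in BrmKO and 0.718, 0.339 and 0.422 CPM in WT, also with no overlap and a log2 fold change of -2.17 ± 0.71. Both are low genes, with 58 and 10 reads over the BrmKO libraries and 157 and 49 over the WT libraries. Of the 27, these 2 alone had groups that did not overlap, beside 5.37% of all tested genes lower without overlap.

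Igfbp7 had 3.51, 2.68 and 5.26 CPM in BrmKO and 17.0, 7.39 and 5.10 CPM in WT. Igfbp3 had 0, 0 and 0.436 CPM in BrmKO and 3.15, 0.954 and 0.211 CPM in WT. For both the groups overlapped and WT replicate 1 was the highest library, as it was for Igfbp2. Without that library the log2 fold change of Igfbp7 was -0.71, against -1.36 ± 0.44 with all libraries. The receptor Igf1r, named after its values were seen, had 58.9 ± 4.92 CPM in BrmKO and 53.2 ± 10.7 CPM in WT, a log2 fold change of 0.15 ± 0.15 (adjusted p = 0.999, edgeR) that was at -0.0041 without WT replicate 1. The binding protein Igfbp4 was the most abundant gene of the list, at 539 ± 70.4 CPM in BrmKO and 542 ± 83.9 CPM in WT (SD, n = 3 each), and the kinases Akt1, Akt2 and Pik3cd had log2 fold changes of 0.05, 0.12 and -0.20. The median over the 27 was -0.01, the same as over all genes to 2 decimals.

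Markers of marrow stroma, which the gate should leave out, had log2 fold changes of both signs, most of them below 0. Of 20 stromal markers, 17 were tested and 0 passed in edgeR. An unadjusted p under 0.05 was found for 7, all lower in BrmKO, beside 2.71% of all tested genes. Groups did not overlap for 6, all lower, beside 5.37% of all tested genes. The log2 fold changes lay below 0 for 13 and above 0 for 4. Their median of -1.26 was at -0.51 without WT replicate 1. DESeq2 called 2 of them, Pdgfra and Ibsp, and limma-voom called 1, Pdgfra. The 4 above 0 were the collagens Col1a1 and Col1a2, at 1.41 and 0.68, Dcn at 1.05 and Runx2 at 0.00. Pdgfra, at 0 in every BrmKO library, was the only marker of the 20 at 0 in a whole group, with 67 reads over the WT libraries. Lepr, the receptor that marks stroma around vessels, had 0.836, 0 and 0.524 CPM in BrmKO and 11.0, 3.23 and 1.44 CPM in WT. The 20 summed to 249.6 to 357.2 CPM in BrmKO and to 261.4 to 506.8 CPM in WT, of which Pdgfrb made up 47.2% over all libraries. The 11 endothelial markers all had log2 fold changes below 0, with 0 passing in edgeR or limma-voom and 2 in DESeq2. In edgeR 3 had an unadjusted p under 0.05, beside 2.71% of all tested genes lower. Groups did not overlap for 4, beside 5.37%. Their median of -1.18 was at -0.39 without WT replicate 1. They summed to 266.1 to 283.9 CPM in BrmKO and 292.3 to 384.8 CPM in WT. The part of stromal or endothelial RNA in the values of Igf1 and of the binding proteins was not tested. Of the other marker lists, platelet, B lineage and macrophage genes had medians of -0.58, -0.51 and -0.38, and T and NK genes of 0.31, which was at 0.05 without BrmKO replicate 1. The medians of erythroid, granulocyte and stem cell genes, -0.06, -0.15 and -0.06, turned sign with single libraries. Without BrmKO replicate 1 or WT replicate 3 the erythroid median was at 0.14 or 0.33, without WT replicate 3 the granulocyte median was at 0.42, and without BrmKO replicate 2 or WT replicate 2 the stem cell median was at 0.04 or 0.06. Of the 15 stem cell genes 0 passed in edgeR and 3 had an unadjusted p under 0.05, beside 5.85% of all tested genes. Hlf was higher in BrmKO, at a log2 fold change of 0.39, and Ctnnal1 and Tek were lower, at -0.57 and -0.45. Groups did not overlap for 2 of the 15, both higher, beside 5.69% of all tested genes. The platelet gene Pf4 was the one marker in all lists to pass in edgeR (adjusted p = 0.0391). It also passed in DESeq2, limma-voom, the other scalings, with no filter and with the replicate number as a block, and in none of the fits that leave out 1 library. DESeq2, where 150 of 15691 genes passed, called 4 of the 10 platelet genes, Itgb3, Pf4, Selp and Treml1. From these other lists it also called Ccr2 of the macrophage and Trbc1 of the T and NK genes. These markers were all lower in BrmKO. In edgeR all 10 platelet genes had log2 fold changes below 0. An unadjusted p under 0.05 was found for 4, beside 2.71% of all tested genes lower. Groups did not overlap for 4, beside 5.37%.

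**Figure D5:**
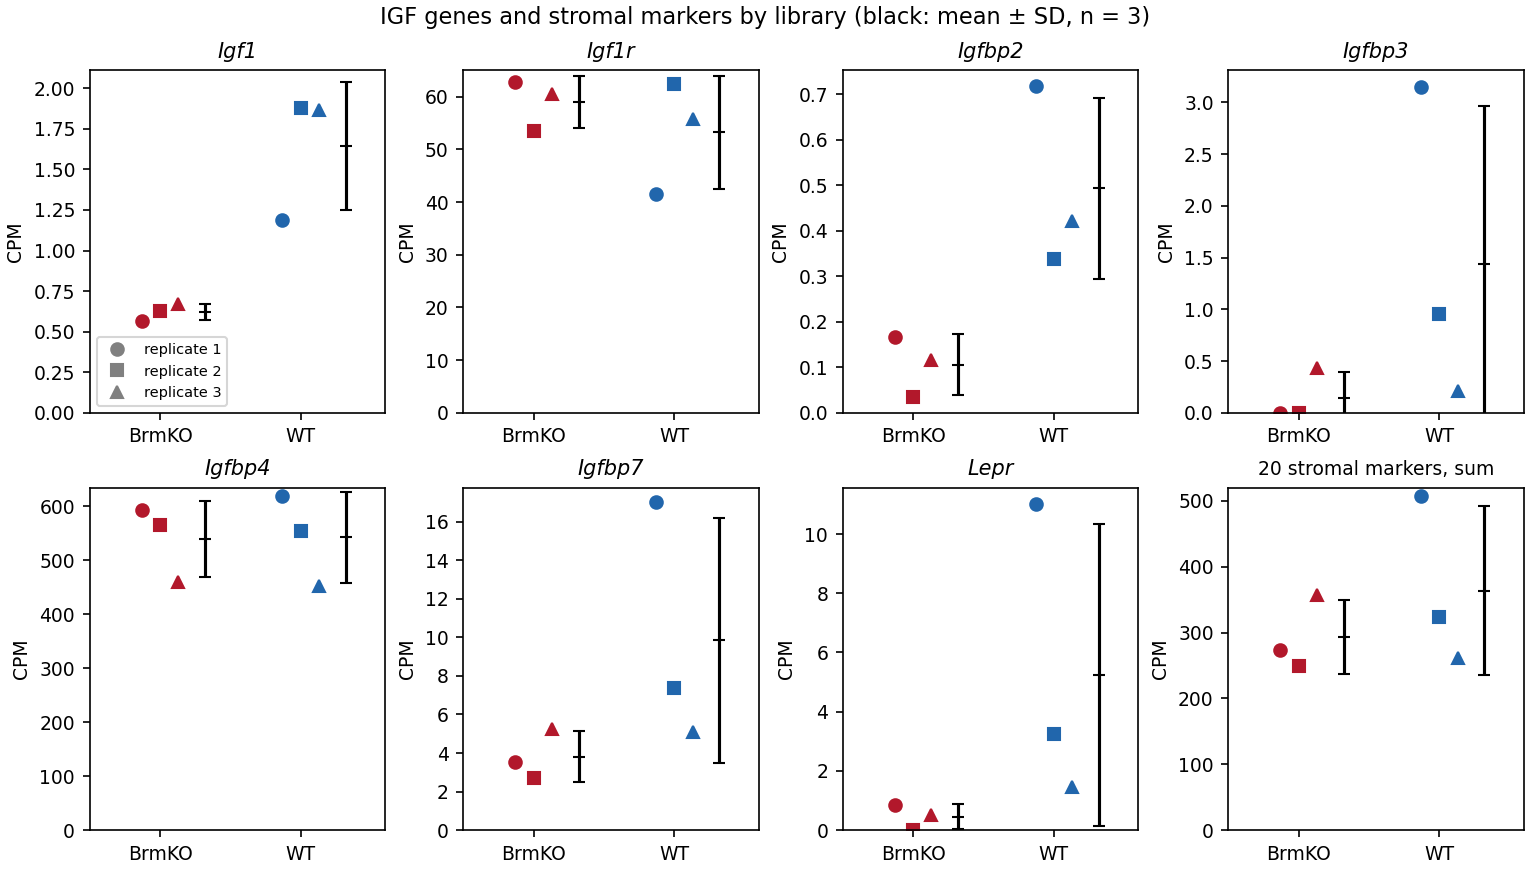
CPM by library of 6 genes of IGF signalling, of the stromal marker Lepr and of 20 stromal markers summed, with BrmKO in red to the left of WT in blue and the mean ± SD (n = 3) in black. Each axis starts at 0. Igf1 and Igfbp2 are lower in every BrmKO library, Igf1r and Igfbp4 overlap, and WT replicate 1 is highest for Igfbp2, Igfbp3, Igfbp7, Lepr and the sum.

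The factors that set, read or erase imprints were listed as 18 genes, of which 15 were tested and 0 passed in edgeR, DESeq2 or limma-voom. Tet1, an enzyme that oxidises methylated cytosine, was the 1 gene of the 15 with an unadjusted p under 0.05 in edgeR, beside 5.85% of all tested genes. It stood at 64.6 ± 11.8 CPM in BrmKO and 52.1 ± 2.57 CPM in WT (SD, n = 3 each), a log2 fold change of 0.31 ± 0.13 with overlapping groups. Dnmt3b, a methyltransferase that lays down new methylation, had 213.6, 185.4 and 191.9 CPM in BrmKO and 181.7, 173.1 and 157.3 CPM in WT, with no overlap and a log2 fold change of 0.21 ± 0.09. Their adjusted p-values were 0.828 and 0.849 (edgeR). Zfp57, which recognises methylated imprint control regions, had 2.33 ± 0.48 CPM in BrmKO and 3.00 ± 0.59 CPM in WT. The abundant Dnmt1, which copies methylation at replication, its partner Uhrf1 and the ZFP57 co-repressor Trim28 had log2 fold changes of 0.07, 0.07 and 0.13. Arid4b had 61.05, 59.27 and 63.83 CPM in BrmKO and 66.99, 67.6 and 73.06 CPM in WT, lower with no overlap. Its log2 fold change was -0.17 ± 0.09. Of the 15, 1 was higher and 1 lower without overlap, beside 11.1% of all tested genes in either direction. The median over the 15 was -0.0049.

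The chain that Gnas feeds, from adenylyl cyclases to protein kinase A and CREB, was listed as 22 genes, all tested, of which 0 passed in edgeR, DESeq2 or limma-voom. An unadjusted p under 0.05 was found for 4, all lower in BrmKO, beside 2.71% of all tested genes. They were the cAMP response factors Crem and Creb1, the cyclase Adcy4 and the kinase subunit Prkar2b, with log2 fold changes of -0.61 ± 0.21, -0.30 ± 0.10, -0.97 ± 0.42 and -0.30 ± 0.13. Crem had 8.16, 9.13 and 8.93 CPM in BrmKO and 11.0, 11.6 and 17.4 CPM in WT, with no overlap. Creb1 had 86.3, 81.2 and 90.5 CPM in BrmKO and 92.4, 111.6 and 113.0 CPM in WT, again with no overlap. Their adjusted p-values were 0.690 and 0.694 (edgeR). Groups did not overlap for 3 of the 22, Crem, Creb1 and Gnal, all lower, beside 5.37% of all tested genes in that direction. Gnal had a log2 fold change of -0.61 ± 0.32. The most abundant genes of the chain, Prkar1a, Adcy7, Prkacb and Pde4b, had log2 fold changes of -0.16, -0.01, 0.00 and -0.01, and the median over the 22 was -0.02.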

How the data were processed

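Sequencing and counting were done by the authors. The authors deposited raw counts, whole numbers of reads for each Ensembl gene in each of 6 libraries, and 5 rows per file that name no gene (outside genes 5.79% to 9.29% of reads, ambiguous 6.23% to 6.48%, not unique 4.38% to 5.27%, not aligned 1.99% to 2.48%, low quality 0.00292% to 0.00369%), which were left out. Per the labels' protocols, libraries were made from polyadenylated RNA with a SMART-Seq v4 kit, which does not mark strand. Per the submitters' processing notes, STAR, HTSeq and DESeq2 were among the tools and GRCm38 was the build. The sources used here give no versions, strand setting or annotation release. HTSeq leaves out reads that fall on more than 1 gene.

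Here counts were tested with edgeR 4.0.16 in R 4.3.3 (quasi-likelihood, robust, TMM factors, filterByExpr, no covariate) over 15691 genes, BrmKO against WT with 3 libraries each, and p-values were adjusted over all of them by the Benjamini-Hochberg method with a threshold of 0.05. CPM are on TMM-scaled library sizes, and the 4 members that the filter removed were compared by exact permutation. Positions, symbols and exon lengths are those of GENCODE M21 and promoter windows those of RefSeq. A search with minimap2 2.31 at 95% identity over 50% of length found no near-identical copy of a member. DESeq2 1.42.0 and limma 3.58.1 (voom), other scalings, no filter, a replicate block and leaving out each library were the alternatives. The tools were tested on simulated data with known changes. Every pair of libraries differed by more than sampling noise (chi-square over degrees of freedom at least 13.2).

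The members and lists were chosen with earlier results of these data known. All members, detected genes of their clusters, up to 6 other imprinted genes by smallest p, and up to 4 genes by p and 4 by level of each pathway list were named, and up to 3 markers by p. Other names (Igf1r, Gnal, gate markers, Pdgfrb, Pecam1, the markers with values above 0, those called in DESeq2, overlapping genes) were chosen after their values were seen. The result of 1 marker that this rule would name is not reported here.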

Additional observations from a re-analysis of the deposited data

How the results depend on the processing

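Over 12 alternatives the number of genes that passed, 22 in edgeR, was 150 in DESeq2 and 58 with no filter on low counts, and lay between 6 and 36 when single libraries were left out (6 without WT replicate 2, 7 without WT replicate 1, 9 without BrmKO replicate 1, 36 without WT replicate 3). The cause was not tested. Of the members, 0 passed in edgeR and 1, Igf2r, in DESeq2, with 0 under the other 11 alternatives, among them limma-voom. Of the other imprinted genes 0 passed under any. Same-numbered libraries deviated with correlations of 0.05, 0.01 and 0.19 for numbers 1 to 3, and BrmKO replicate 1 correlated best with WT replicate 2, so the numbers were not taken as pairs, though those numbered 3 deviated together. With the replicate block 25 genes passed, and 0 members and 0 other imprinted genes. Some log2 fold changes turned sign. Nespas, at -0.09, was at 0.20 in limma-voom and 0.024 with the replicate block. Leaving out single libraries turned Grb10 (-0.028 to 0.40), Airn (-0.0026 to 1.29), Nespas (-0.59 to 0.36), Mkrn3 (-0.14 to 0.43), Peg12 (-0.20 to 0.10), Igfbp4 (-0.12 to 0.10), Igf1r (-0.0041 to 0.28), Akt1 (-0.034 to 0.11), Dnmt1 (-0.042 to 0.18), Uhrf1 (-0.032 to 0.15), Adcy7 (-0.071 to 0.037), Prkacb (-0.064 to 0.057), Pde4b (-0.056 to 0.023) and Peg13 (-0.16 to 0.015), and of the markers Klf1 (-0.15 to 0.32), S100a8 (-1.17 to 0.40), Ltf (-1.88 to 0.84) and S100a9 (-1.09 to 0.63). No other scaling moved the median over all genes by more than 0.1. Depth limits H19, Peg3 and Plagl1, which the filter removed, and exon overlap limits Igf2 and Gnas.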
